A study of Mus musculus with 12 samples.

Results

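The 10 genes described here carry out iron uptake, export, storage and their hormonal control, and were taken by gene name from the duodenum and liver tables. Each table lists 55416 genes, and all 10 members have a row in both. They are Cybrd1 (ENSMUSG00000027015), Slc11a2 (ENSMUSG00000023030), Slc40a1 (ENSMUSG00000025993), Heph (ENSMUSG00000031209), Fth1 (ENSMUSG00000024661), Tfrc (ENSMUSG00000022797), Steap3 (ENSMUSG00000026389), Tfr2 (ENSMUSG00000029716), Hamp (ENSMUSG00000050440) and Hamp2 (ENSMUSG00000056978).

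Male C57BL6/J mice, 8 weeks old at the start, received corticosterone (CORT, the main glucocorticoid of rodents, 40 mg/kg) or vehicle (Veh) under the skin every day for 8 weeks. RNA from 50 mg of whole duodenum (labelled intestine) or whole liver was sequenced, giving 3 libraries for each treatment in each tissue, 12 in all. The labels call the replicates biological, and nothing says whether equally numbered liver and duodenum libraries came from the same mouse. Values are TPM, transcript abundances scaled by transcript length and library total, so read depth is not known and the error comes from the spread between 3 libraries.

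Dietary iron is reduced at the enterocyte surface by Cybrd1, enters through Slc11a2 (DMT1), is held in ferritin or leaves across the basolateral membrane through Slc40a1 (ferroportin), and is oxidised by Heph (hephaestin) before it binds transferrin. Hepcidin, a peptide hormone that hepatocytes make from Hamp, blocks and degrades ferroportin, and the liver raises it when iron stores or inflammation rise, through BMP-SMAD and IL-6-STAT3 signals. Inside cells, iron regulatory proteins bind a hairpin called the iron responsive element (IRE): in a 5′ UTR it holds back translation, and in a 3′ UTR it keeps the mRNA stable when iron is low.

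The hairpins are shown because part of this control acts on translation and would not alter a TPM value. GENCODE transcripts (GRCm38) were searched for an unpaired C, 5 paired bases and the loop CAGTGN (last base not G) between stems of 5 pairs (G-U pairs allowed). A match was found in 123 of 21877 protein-coding genes (0.562%), and in Slc40a1, Fth1 and Tfrc among the 10 members. Tfrc was the only one of the genes searched with 4 or more matches. Elements with an irregular stem, such as the one known in some Slc11a2 transcripts, are outside this pattern. Capitals mark the unpaired C and the loop.
Slc40a1, 5′ UTR: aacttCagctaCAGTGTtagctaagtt
Fth1, 5′ UTR: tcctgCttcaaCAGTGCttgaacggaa
Tfrc, 3′ UTR: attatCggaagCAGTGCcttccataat
Tfrc, 3′ UTR: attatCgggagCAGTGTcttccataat
Tfrc, 3′ UTR: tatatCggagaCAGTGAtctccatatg
Tfrc, 3′ UTR: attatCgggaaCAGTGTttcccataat

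Hamp and Hamp2 are neighbouring copies, and their sequences are shown because the values of both rest on telling them apart. Their transcripts are 92.4% identical, with a longest identical run of 87 bases. The last 78 bases of the coding sequence, which encode the mature peptide and the stop codon, differ at 14 positions, shown in capitals (GENCODE, GRCm38).
Hamp: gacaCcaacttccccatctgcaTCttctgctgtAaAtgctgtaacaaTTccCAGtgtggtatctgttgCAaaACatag
Hamp2: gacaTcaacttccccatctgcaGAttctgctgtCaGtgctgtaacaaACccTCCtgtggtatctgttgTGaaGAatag

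The promoters (RefSeq, GRCm38.p6, minus strand, 250 bases before to 50 after the start) are 91.1% identical. They were searched on both strands for GGCGCC, the core of the BMP response element, and TTCNNNGAA, the STAT motif, which do not overlap here and are in capitals. The hypoxia response core ACGTG and the glucocorticoid receptor motif AGAACA were searched as well. Hamp holds GGCGCC at -109 to -104 and the STAT motif at -97 to -89 from the start, whereas Hamp2 holds the STAT motif at -94 to -86 but lacks the BMP motif. GGCGCC occurs in 11.9% and TTCNNNGAA in 8.3% of 32851 promoters of this length. AGAACA lies at 31 to 36 in Hamp and at 34 to 39 in Hamp2 and occurs in 19.0% of promoters, while ACGTG (19.6%) is in neither. A match describes the letters only and shows no binding.
Hamp, chr7:30943980-30944279: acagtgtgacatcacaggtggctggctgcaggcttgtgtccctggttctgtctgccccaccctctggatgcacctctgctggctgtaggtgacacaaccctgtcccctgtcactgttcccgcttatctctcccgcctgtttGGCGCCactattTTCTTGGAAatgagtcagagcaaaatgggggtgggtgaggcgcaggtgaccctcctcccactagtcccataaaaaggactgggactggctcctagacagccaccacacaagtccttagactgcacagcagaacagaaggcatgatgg
Hamp2, chr7:30924132-30924431: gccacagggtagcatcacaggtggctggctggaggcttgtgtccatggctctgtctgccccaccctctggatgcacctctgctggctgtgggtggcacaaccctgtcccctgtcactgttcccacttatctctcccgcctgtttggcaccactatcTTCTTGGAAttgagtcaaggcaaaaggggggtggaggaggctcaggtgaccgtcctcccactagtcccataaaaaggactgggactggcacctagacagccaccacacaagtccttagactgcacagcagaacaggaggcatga

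The treatment showed in both tissues: Fkbp5, a glucocorticoid receptor target, had log2 fold changes of 4.30 in the duodenum (limma adjusted p = 0.00450) and 4.23 in the liver (limma adjusted p = 0.00178). Absorptive enterocyte markers in the duodenum summed to 38040, 25410 and 25860 TPM in Veh and to 48290, 44230 and 47350 TPM in CORT libraries, without overlap. Of the 10 markers, 6 were higher and 4 lower under CORT, and none was called. Hepatocyte markers summed to between 104300 and 137900 TPM in the liver. The duodenum Veh libraries differed among themselves: 35 pancreatic acinar genes held 5.13% and 4.45% of TPM in Veh2 and Veh3, 0.615% in Veh1, and 0.604% to 0.688% in the CORT libraries. Zg16, which is also a goblet cell gene, made up most of the sum in Veh1 and in all 3 CORT libraries. Tff2, a gene of Brunner glands and stomach, was at 144 and 145 TPM in Veh2 and Veh3, at 0.76 TPM in Veh1 and at 0.18 TPM or less under CORT. The transcription factor Pdx1 of the proximal gut was at 13.4, 41.9 and 40.6 TPM in Veh1 to Veh3, and at 32.4, 23.9 and 8.13 TPM in CORT1 to CORT3. Results that rest on Veh2 and Veh3 are therefore given with and without them, an alternative chosen after seeing the data. Leaving both out keeps Veh1 as the only Veh library, so only the differences of that fit are given. Whole tissue was sequenced, so fewer cells of a type and less RNA per cell cannot be told apart.

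The first question was whether the duodenal genes that bring iron into the body differ between CORT-treated and Veh mice. Of the 10 members, 8 averaged 1 TPM or more in at least one group and were tested beside the 13607 genes that did. None had a limma adjusted p of 0.05 or less with a fold change over 1.5, a call that 2.15% of the genes tested received. At an unadjusted p under 0.05, Heph was higher and Slc11a2 and Steap3 were lower (3 of 8, against 19.2% of the genes tested). The groups did not overlap for Heph and Steap3 (2 of 8, against 26.4%). Fold changes here are on the log2(TPM + 1) scale, CORT against Veh, which understates the change of low genes.

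**Figure D1:**
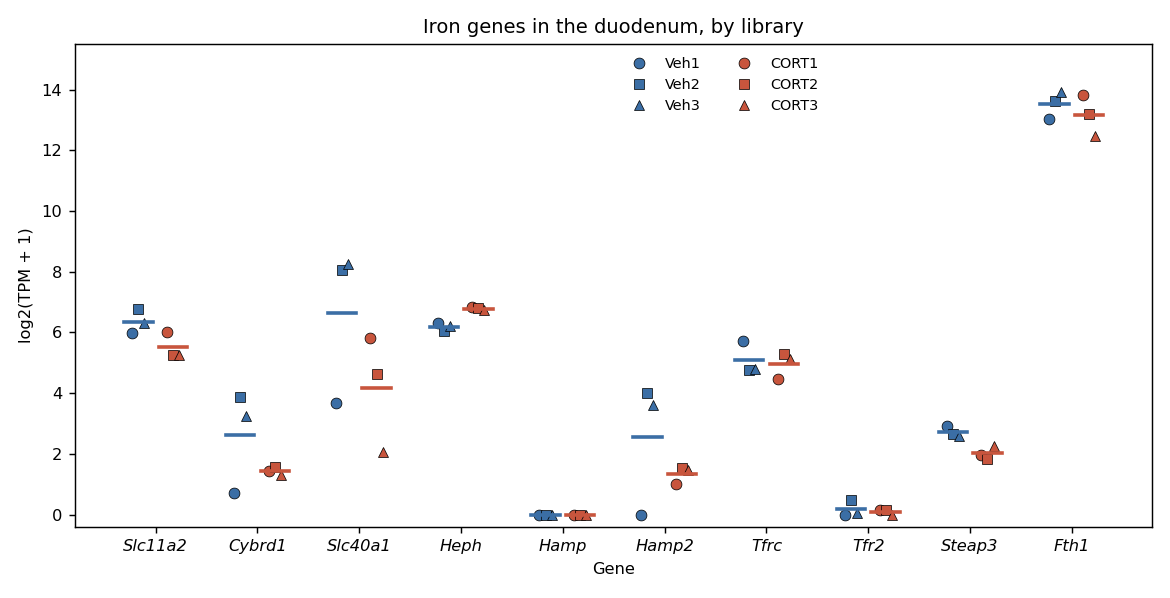
Levels of the 10 members as log2(TPM + 1) in each duodenum library; blue points are Veh and red points CORT libraries, marker shapes give the replicate, and short bars are group means on this scale (n = 3). Heph and Steap3 separate the groups, while Cybrd1, Slc40a1 and Hamp2 spread most within the Veh group.

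Slc11a2, the importer of ferrous iron at the brush border, was at 61.9, 108 and 79.0 TPM with vehicle against 63.1, 37.6 and 37.1 TPM with CORT. CORT2 and CORT3 lay below all Veh libraries, and CORT1 lay just above Veh1. The mean was 45.9 ± 14.9 under CORT and 83.1 ± 23.4 TPM under Veh (SD, n = 3). The difference was -0.85 on the log2 scale (95% interval -1.5 to -0.20) with a limma adjusted p of 0.169, and it kept its sign without any 1 library (-1.10 to -0.64). Without Veh2 and Veh3 it was -0.47.

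Heph is the copper oxidase that acts on exported iron before transferrin binds it. Heph was at 77.7, 64.9 and 73.2 TPM with vehicle against 113, 110 and 105 TPM with CORT. Every CORT library lay above every Veh library. The difference was 0.60 ± 0.12 (SE) on the log2 scale, from 71.9 ± 6.49 to 109 ± 3.99 TPM (SD, n = 3), with an unadjusted limma p of 0.00159 and an adjusted p of 0.0598. None of the alternatives brought the adjusted p to 0.05, so this difference, with no overlap between groups, was not called. It was 0.49 without Veh2 and Veh3.

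Slc40a1, the only known cellular iron exporter, was the most variable member. It was at 11.8 TPM in Veh1 and at 263 and 302 TPM in Veh2 and Veh3, and the CORT libraries were at 56.0, 23.6 and 3.22 TPM. Veh1 lay within the CORT range, and both other Veh libraries lay far above it. The difference of -2.48 on the log2 scale had an interval from -5.80 to 0.84 and a limma adjusted p of 0.386. Leaving out Veh1 made it -3.97, and leaving out Veh2 and Veh3 turned it to 0.49.

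Cybrd1, the duodenal ferric reductase, was at 0.64 TPM in Veh1 and at 13.6 and 8.53 TPM in Veh2 and Veh3. Its CORT libraries were close together at 1.69, 2.00 and 1.5 TPM, between Veh1 and the other Veh libraries. The difference was -1.17 on the log2 scale (limma adjusted p = 0.435). Without Veh1 it was -2.11 and passed the test (limma adjusted p = 0.0117). Without Veh2 and Veh3 it was 0.73, so the choice of Veh library set both the direction and the call.

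Hamp2 was likewise lowest in Veh1 and highest in Veh2 and Veh3 in the duodenum, with 0 TPM in Veh1, 14.99 and 11.3 TPM in Veh2 and Veh3, and 1.00, 1.93 and 1.75 TPM under CORT. Hamp itself was listed at 0 in all 6 duodenum libraries. The Hamp2 difference was -1.20 on the log2 scale (limma adjusted p = 0.533). It was -2.48 without Veh1 (limma adjusted p = 0.00798) and 1.34 without Veh2 and Veh3.

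The 3 genes Slc40a1, Cybrd1 and Hamp2 were therefore high in the same 2 Veh libraries that held the acinar and Tff2 transcripts. The part of those transcripts in these differences was not tested. Among the genes whose log2 levels followed Cybrd1 most closely over the 6 duodenum libraries were Rasgef1b (Pearson r = 0.997), Cd3e (0.988), Fkbp11 (0.986) and 5830408C22Rik (0.985), out of 13607 genes. These 4 genes had their highest levels in Veh2 and Veh3. These correlations describe 6 libraries that fall into sets, and carry no test.

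**Figure D2:**
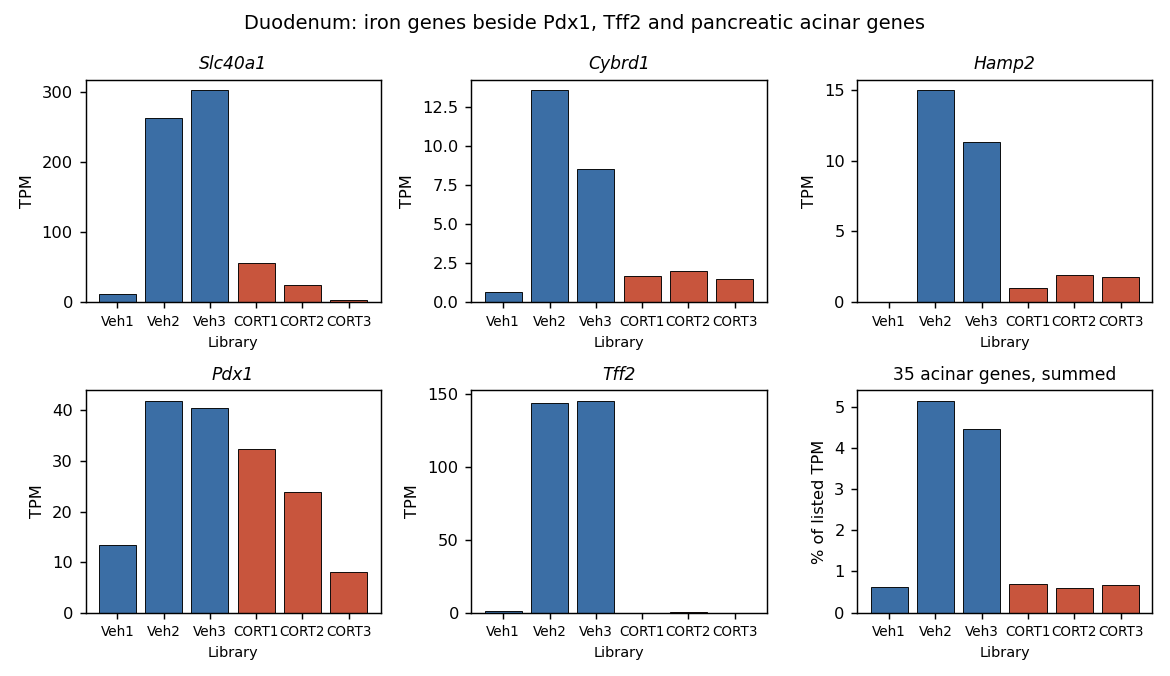
Bars give TPM of Slc40a1, Cybrd1, Hamp2, Pdx1 and Tff2, and the share of TPM in 35 pancreatic acinar genes, in each of the 6 duodenum libraries (Veh blue, CORT red; each panel has its own linear axis from 0). Veh2 and Veh3 stand above Veh1 in every panel, and the 3 CORT libraries lie near or below Veh1 for Tff2 and the acinar share.

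Ferritin heavy chain, Fth1, which oxidises and stores iron, was the most abundant member in the duodenum, ranking 4 among all genes by mean Veh level. It was at 8393, 12752 and 15655 TPM with vehicle against 14437, 9431 and 5657 TPM with CORT. The groups overlapped over most of their range. The difference was -0.37 on the log2 scale (95% interval -1.28 to 0.53, limma adjusted p = 0.622), and it was 0.13 without Veh2 and Veh3. Processed pseudogenes resemble Fth1, and how the counting split their reads is unknown. Ftl1, the ferritin light chain, ranged from 2074 to 2399 TPM in Veh and from 1756 to 2275 TPM in CORT libraries (-0.12 on the log2 scale, limma adjusted p = 0.696).

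Tfrc, the transferrin receptor that crypt cells use to take iron from blood, was at 51.9, 26.1 and 26.8 TPM with vehicle against 21.4, 38.0 and 34.1 TPM with CORT. Veh1 was the highest and CORT1 the lowest, with the others between. The difference was -0.13 on the log2 scale (95% interval -0.88 to 0.63, limma adjusted p = 0.857), and its sign turned without Veh1 (0.19) or CORT1 (0.11). The difference was -0.76 without Veh2 and Veh3. Steap3, the endosomal reductase that acts on iron released from transferrin, was at 6.49, 5.27 and 4.99 TPM with vehicle against 2.94, 2.59 and 3.76 TPM with CORT. All CORT libraries lay below all Veh libraries. The difference was -0.69 ± 0.17 (SE) on the log2 scale, with an unadjusted limma p of 0.00465 and an adjusted p of 0.0923. It was -0.88 without Veh2 and Veh3. Tfr2, the hepatic and erythroid sensor of transferrin, was at 0.40 TPM or less in every duodenum library and was not tested.

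The second question was whether hepatic iron control and storage differed. Again 8 of the 10 members were tested, among 11699 genes, since Cybrd1 (0.06 TPM or less) and Heph (0.55 TPM or less) were below the level filter. Steap3 was the only member called, and it was lower under CORT. Calls were made for 6.92% of the genes tested, and calls of lower genes for 2.01%. At an unadjusted p under 0.05, Slc40a1 was also higher (2 of 8, against 25.9% of the genes tested). The same genes had groups that did not overlap (2 of 8, against 32.2%).

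**Figure D3:**
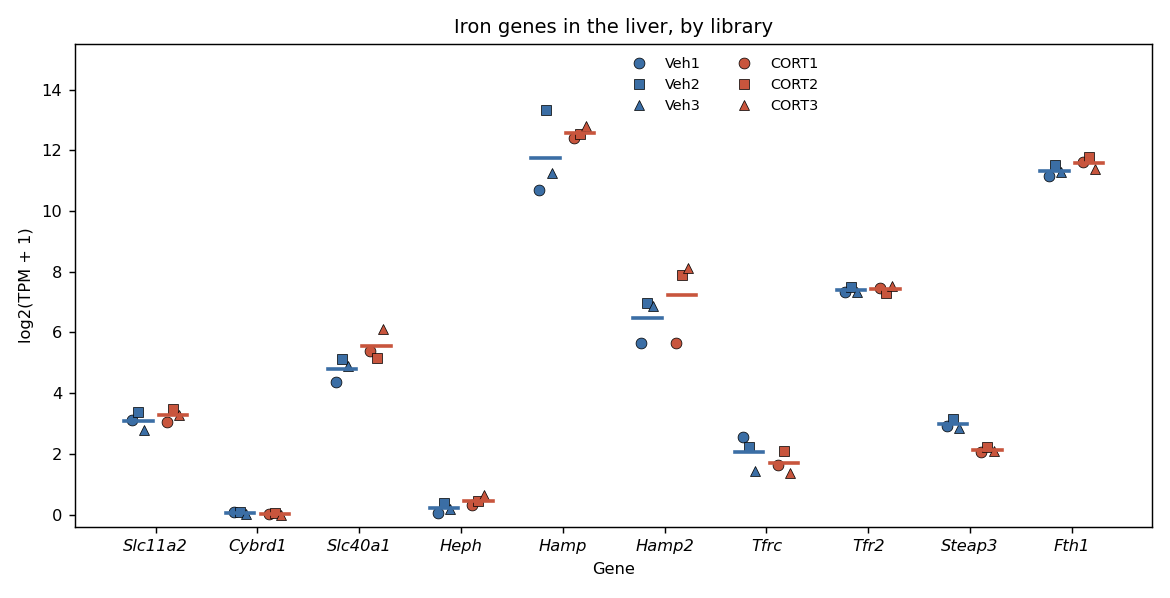
Levels of the 10 members as log2(TPM + 1) in each liver library; blue points are Veh and red points CORT libraries, marker shapes give the replicate, and short bars are group means on this scale (n = 3). Steap3 and Slc40a1 separate the groups, and Hamp spans 1655 to 10207 TPM among the Veh libraries alone.

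Steap3 was at 6.58, 7.91 and 6.27 TPM in Veh livers and at 3.14, 3.72 and 3.32 TPM in CORT livers. Every CORT library lay below every Veh library, as in the duodenum. The mean fell from 6.92 ± 0.871 to 3.39 ± 0.297 TPM (SD, n = 3), a difference of -0.85 ± 0.14 (SE) on the log2 scale with a limma adjusted p of 0.0188. It was called without CORT2 and without Veh2, and leaving out Veh1, Veh3, CORT1 or CORT3 gave differences of -0.91 to -0.81 with limma adjusted p-values from 0.0529 to 0.0875. The difference between tissues, tested as a treatment by tissue term, did not reach the limit for Steap3 or for any other of the 6 members tested in both tissues (0 of 6, against 3.61% of 14806 genes). Cybrd1, Heph, Hamp and Tfr2 were under the level filter in 1 tissue, so this term could only restate their difference in the other.

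Hamp, the hepcidin gene, ranked 37 among all liver genes by mean Veh level. It was at 1655 TPM in Veh1, 10207 TPM in Veh2 and 2449 TPM in Veh3, against 5381, 5999 and 7133 TPM with CORT. The CORT libraries were close together and lay between Veh2 and the other Veh libraries. The means were 6171 ± 888 and 4771 ± 4725 TPM (SD, n = 3), and the difference of 0.83 on the log2 scale had an interval from -0.64 to 2.29 and a limma adjusted p of 0.445. Veh2 decided the call: without it the difference was 1.61 (limma adjusted p = 0.0254), and without Veh1 it was 0.29.

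Id1 and Smad7, targets of BMP-SMAD signalling in hepatocytes, are named whatever their values. Id1 was at 2.77, 38.4 and 14.4 TPM with vehicle against 15.9, 20.4 and 17.2 TPM with CORT (0.51 on the log2 scale, limma adjusted p = 0.705). Smad7 was at 1.29, 5.23 and 1.86 TPM with vehicle against 4.24, 4.26 and 5.0 TPM with CORT (0.67 on the log2 scale, limma adjusted p = 0.280). Both were lowest in Veh1 and highest in Veh2 among the Veh livers, as Hamp was. The other targets Id2 and Id3 were also highest in Veh2 but lowest in Veh3 (52.5 and 19.1 TPM). The 5 genes closest to Hamp over the 6 livers were Abcg1 (Pearson r = 0.994), Alg10b (0.993), Elk3 (0.993), Sparc (0.992) and Itgb1 (0.991), of 11699 genes, given as a description with no test.

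Hamp2 was at 48.8, 124 and 116 TPM with vehicle against 49.0, 238 and 278 TPM with CORT. CORT1 and Veh1 were nearly equal and lowest. The difference was 0.73 on the log2 scale (95% interval -0.89 to 2.35, limma adjusted p = 0.537). Hamp2 made up between 0.903% and 4.54% of the summed Hamp and Hamp2 level in the livers and all of it in the 5 duodenum libraries where the sum was above 0.

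Slc40a1, through which Kupffer cells and hepatocytes release iron, was at 19.7, 33.8 and 28.5 TPM with vehicle against 40.5, 34.6 and 68.7 TPM with CORT. The groups did not overlap, but CORT2 lay just above Veh2. The difference was 0.76 on the log2 scale (95% interval 0.06 to 1.46, limma adjusted p = 0.165), 0.96 without CORT2 and 0.47 without CORT3. CORT3 also had the highest summed level of 10 macrophage and Kupffer cell markers (404 TPM, against 139 and 229 TPM in CORT1 and CORT2 and 160 to 195 TPM in Veh) and of Hmox1, the haem-degrading enzyme (47.6 TPM, against 8.23 to 16.6 TPM in the other livers). None of the 10 markers was called, and their part in the Slc40a1 level was not tested.

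Fth1 was at 2255, 2893 and 2490 TPM with vehicle against 3109, 3534 and 2646 TPM with CORT, with CORT3 inside the Veh range (0.28 on the log2 scale, 95% interval -0.11 to 0.67, limma adjusted p = 0.340). Ftl1 ranged from 3926 to 5721 TPM in Veh and from 4668 to 5084 TPM in CORT livers (0.11 on the log2 scale, limma adjusted p = 0.718). Neither ferritin subunit therefore differed beyond the spread between libraries.

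Tfr2, which senses transferrin iron on hepatocytes, was the steadiest member. It was at 159, 181 and 160 TPM with vehicle against 177, 157 and 182 TPM with CORT, a difference of 0.05 on the log2 scale (95% interval -0.25 to 0.34, limma adjusted p = 0.847). Tfrc was low, at 4.83, 3.72 and 1.72 TPM with vehicle against 2.12, 3.32 and 1.6 TPM with CORT (-0.36 on the log2 scale, limma adjusted p = 0.511). Slc11a2 ranged from 5.84 to 9.45 TPM in Veh and from 7.32 to 10.03 TPM in CORT livers (0.17 on the log2 scale, limma adjusted p = 0.609).

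**Figure D4:**
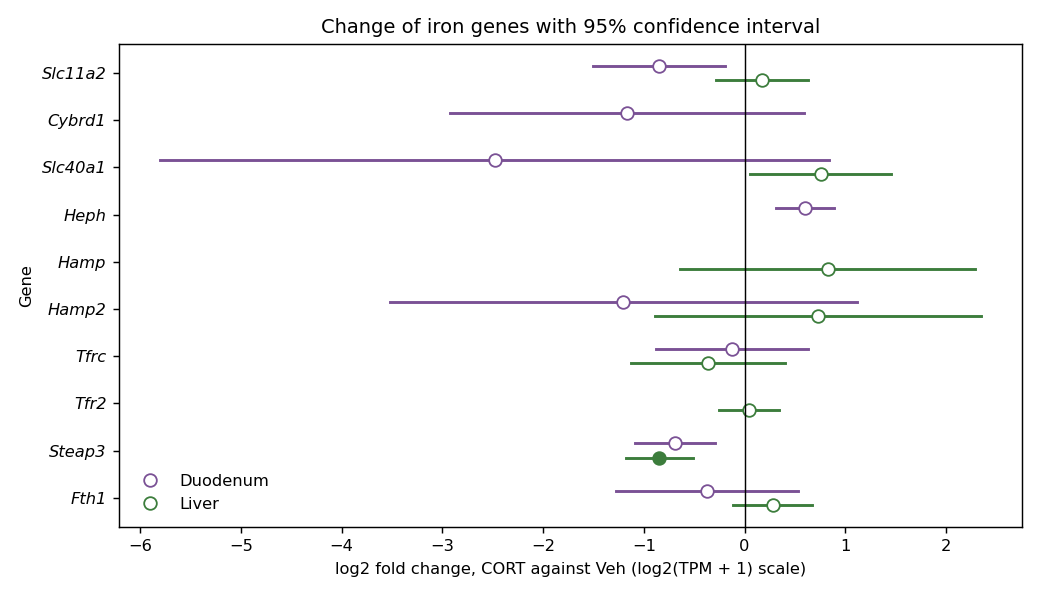
Log2 fold change, CORT against Veh, of the members tested in each tissue, with 95% intervals from limma (n = 3 per group); the filled point was called. The widest intervals belong to Slc40a1 in the duodenum (-5.80 to 0.84) and the narrowest to Heph in the duodenum and Tfr2 in the liver.

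Set side by side, the tables were normalised separately, so levels across tissues are described and not tested. Mean Veh levels of Fth1, Slc40a1 and Slc11a2 were 12270, 192 and 83.1 TPM in the duodenum and 2546, 27.3 and 7.66 TPM in the liver. Heph was at 71.9 TPM in the duodenum and 0.160 TPM in the liver, whereas Tfr2 was at 0.150 and 167 TPM. The Slc11a2 differences of -0.85 in the duodenum and 0.17 in the liver lay 1.02 log2 units apart (limma adjusted p = 0.158). Those of Slc40a1 differed by 3.24 (limma adjusted p = 0.318). Without duodenum Veh1, Slc40a1 passed this test (4.73, limma adjusted p = 0.0492). Without duodenum Veh2 and Veh3, its duodenal difference was 0.49, beside 0.76 in the liver. The tissue term was not fitted for that setting.

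The wider pathway was followed in 82 further iron genes in 6 lists, 81 of which were found under the symbol searched. Transferrin, searched for only as Tf, was not found. In the duodenum 73 were tested, 2 were called higher and none lower, with a median log2 fold change of 0.08 against -0.01 over all genes tested (1.23% of those were called higher and 0.919% lower). Lcn2, which binds bacterial siderophores, rose from 1.12 to 2.58 TPM in Veh to 51.8 to 75.5 TPM in CORT libraries (4.36 on the log2 scale, limma adjusted p = 0.00309). Cd163, the macrophage receptor for haemoglobin bound to haptoglobin, rose from 0.51 TPM or less to between 2.01 and 4.06 TPM (1.6 on the log2 scale, limma adjusted p = 0.0329). Lcn2 was called whichever library was left out, and Cd163 was called only without CORT1, with limma adjusted p-values of up to 0.111 otherwise. With Veh1 as the only Veh library, the differences were 4.13 for Lcn2 and 1.83 for Cd163.

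Among the duodenal regulators, Epas1 (HIF2α), which drives transcription of Slc11a2, Cybrd1 and Slc40a1 in enterocytes, was at 25.4, 30.4 and 38.4 TPM with vehicle against 51.4, 52.2 and 47.9 TPM with CORT. The groups did not overlap, and the difference of 0.69 on the log2 scale had a limma adjusted p of 0.0900. None of the 8 genes for HIF and oxygen sensing was called. Of the RNA-binding iron regulatory proteins, Aco1 ranged from 83.1 to 130 TPM in Veh and from 69.2 to 93.6 TPM in CORT libraries (-0.26 on the log2 scale, limma adjusted p = 0.529). Ireb2 differed by 0.22 (limma adjusted p = 0.585).

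In the liver 75 of the further genes were tested, 9 were called higher and 2 lower, with a median log2 fold change of 0.18 against 0.08 over all genes tested (0.09 and -0.0028 with median-ratio scaling). Of all 11699 liver genes tested, 4.91% were called higher and 2.01% lower. For uptake, Slc39a14 (ZIP14), which imports iron not bound to transferrin, rose from between 39.9 and 51.1 TPM to between 104 and 116 TPM (1.29 on the log2 scale, limma adjusted p = 0.00492). Steap4, a plasma membrane metalloreductase, rose from between 54.2 and 88.3 TPM to between 132 and 274 TPM (1.51 on the log2 scale, limma adjusted p = 0.0336). Mcoln1, the lysosomal channel that releases iron, fell from between 21.9 and 25.4 TPM to between 14.1 and 17.5 TPM (-0.59 on the log2 scale, limma adjusted p = 0.0466).

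For storage, Ncoa4, the receptor that carries ferritin to autophagosomes, rose from 35.8, 45.6 and 42.3 TPM to 105, 90.6 and 109 TPM (1.28 on the log2 scale, limma adjusted p = 0.00597). The groups lay well apart. Bdh2, linked to a mammalian siderophore, fell from between 14.9 and 20.1 TPM to between 5.11 and 7.83 TPM (-1.33 on the log2 scale, limma adjusted p = 0.0105). Aco1 and Ireb2 had log2 fold changes of 0.08 and -0.15 (limma adjusted p = 0.750 and 0.623).

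For plasma binding, Lcn2 rose from between 14.3 and 111 TPM to between 1119 and 3206 TPM (6.12 on the log2 scale, limma adjusted p = 0.00881). Haptoglobin, Hp, which clears free haemoglobin, rose with a log2 fold change of 1.35 (limma adjusted p = 0.0342). Cd163 rose by 2.39 (limma adjusted p = 0.0159), from 2.80 TPM or less to between 8.66 and 20.9 TPM. The transferrin gene was not analysed here.

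For the control of hepcidin, 3 of 28 genes tested were called, all higher, against 4.91% of all liver genes tested. They were Creb3l3, a transcription factor of liver and proximal gut (0.96 on the log2 scale, limma adjusted p = 0.0192), Il6ra, the IL-6 receptor (1.41, limma adjusted p = 0.0232), and Bmp2 (1.18, limma adjusted p = 0.0270). Bmp2, a ligand that sinusoidal endothelium makes, rose from 0.72, 1.89 and 1.33 TPM to 3.73, 4.58 and 4.13 TPM. Bmp6, the other endothelial ligand, was at 0.28, 1.34 and 0.77 TPM with vehicle against 1.64, 1.93 and 2.46 TPM with CORT, with no overlap (0.78, limma adjusted p = 0.125). Sinusoidal endothelial markers summed to 22.8, 51.7 and 30.2 TPM in Veh and to 94.4, 105 and 121 TPM in CORT livers. Of those 6 markers, 4 were called higher against the same 4.91% (Stab2, Lyve1, Pecam1 and Oit3), and their part in the Bmp2 and Bmp6 levels was not tested.

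None of the sensors upstream on hepatocytes was called. Hjv (hemojuvelin) had a log2 fold change of 0.12 (limma adjusted p = 0.747), and Tmprss6, the protease that cleaves it, of -0.19 (limma adjusted p = 0.506). Hfe was at 16.3 to 19.9 TPM in Veh and at 21.5 to 22.4 TPM in CORT livers, without overlap (0.32, limma adjusted p = 0.167). Smad4, the shared SMAD partner, passed the limit on p but not on fold (0.55, limma adjusted p = 0.0429).

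**Figure D5:**
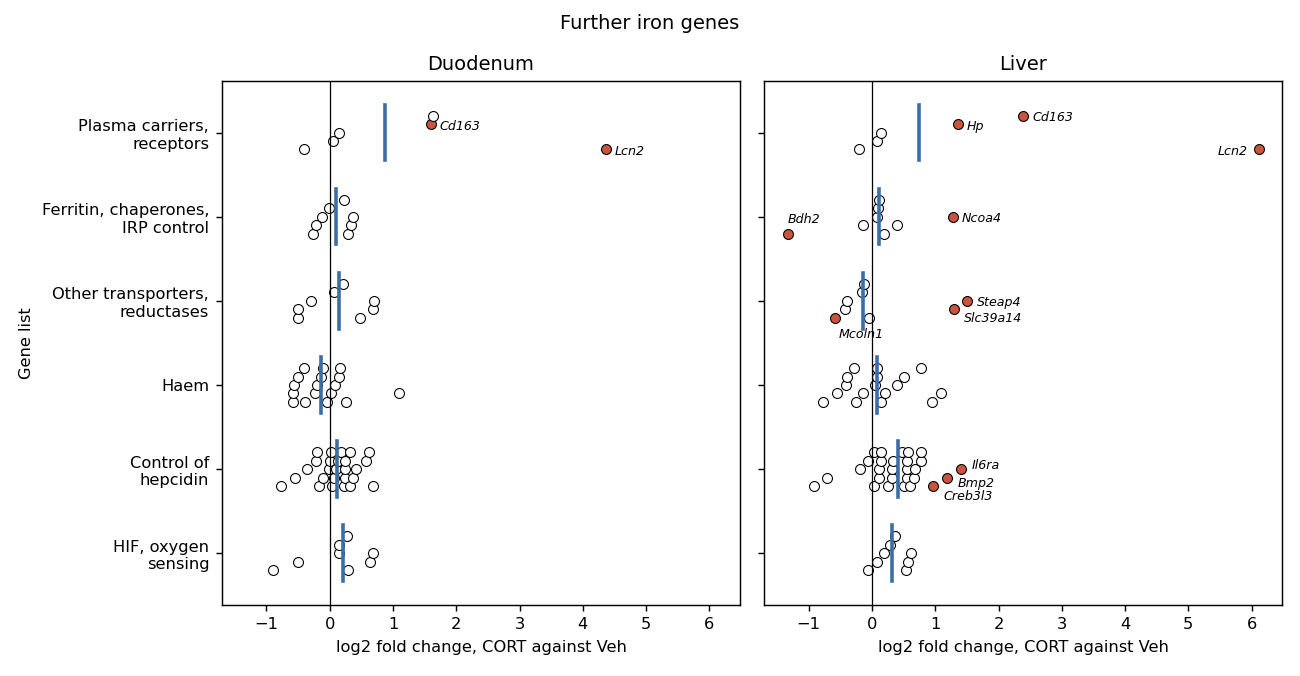
Log2 fold change, CORT against Veh, of the further iron genes tested, by list, in the duodenum (73 genes) and the liver (75 genes); filled points were called, and vertical bars mark list medians. Lcn2 and Cd163 were called in both tissues, and the other 9 calls were in the liver.

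With each liver library left out in turn, Ncoa4, Slc39a14, Lcn2, Cd163 and Bdh2 were called in 6 of 6 fits. Creb3l3 was called only without CORT3 or Veh2, Il6ra only without CORT2 or Veh3, Hp only without Veh1, Steap4 only without CORT1, Bmp2 only without Veh2, and Mcoln1 in none. The limma adjusted p-values of these 6 genes reached up to 0.153 in the other fits. All kept their direction.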

How the data were processed

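RNA-seq of 12 libraries was analysed. The deposited tables hold TPM, which the authors made from trimmed reads with HISAT2, StringTie and RSEM. The submitters' processing notes name the build GRCm39; tool versions and the annotation release are not given in the sources used here. The tables carry the sample labels as column names, and 0 other columns of sample values were left unused.

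Each tissue was fitted alone on log2(TPM + 1) with limma 3.58.1 in R 4.3.3 (eBayes with trend), keeping genes that averaged 1 TPM or more in a group. Benjamini-Hochberg adjustment ran over all genes tested, and calls needed an adjusted p of at most 0.05 with a fold change above 1.5. A treatment by tissue term was fitted over all 12 libraries, taken as independent, with no term for mouse. The smallest two-sided p of an exact permutation test of 3 libraries against 3 is 0.1, so none is reported for single genes. TPM hold no read depth, so no counting error or detection limit can be given.

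The members and lists were chosen with earlier results of these data known. Named were all members, Fkbp5, Id2 and Id3 (chosen after their values were seen), further iron genes called in a tissue (at most 12 each), the fixed regulators and ferritin light chain whatever their values, and the 5 genes closest to Hamp in liver and to Cybrd1 in duodenum, of which 1 is not reported here. Tsc22d3 was also fixed as a check of the treatment and rose by 2.01 on the log2 scale in the duodenum (adjusted p = 0.0185), with 1.92 in the liver (adjusted p = 0.0623). Markers, with their sums, were those of enterocyte, proximal and distal gut, acinar, Brunner gland, goblet, muscle, erythroid, hepatocyte, macrophage, sinusoidal and bile duct cells. In the duodenum 1 macrophage gene was called and 0 of the other lists. In the liver 4 sinusoidal, 1 enterocyte and 1 proximal gut gene (Creb3l3, also in the hepcidin control list) were called, all higher.

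Alternatives were a pseudocount of 0.1, no filter or 0.5 TPM, the replicate number as a block, eBayes without trend, median-ratio scaling, removal of acinar genes, each library left out and unadjusted p. Sequences came from GENCODE and RefSeq tables of GRCm38, a different build from that of the files, and their coordinates were not joined to the files. Promoters of Slc11a2, Slc40a1 and Heph were not used here. On simulated data with 200 genes given a log2 change of 1, the fits called 108 of them among 13607 duodenum genes and 90 among 11699 liver genes. They also called 4 unchanged genes in the duodenum and 8 in the liver. The changed genes were drawn only from those at higher levels, with normal noise independent between genes. Recovery of genes at low levels, such as Steap3, was therefore not covered.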

Additional observations from a re-analysis of the deposited data

Results flagged for a closer look

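In 3 iron genes outside the 10 members, Bmp2, Bdh2 and Slc39a8, the response to CORT differed between liver and duodenum by a test of that difference itself, a treatment by tissue term in limma. Of all 14806 genes tested, 3.61% passed this test. The fit took all libraries as independent. Nothing says whether liver and duodenum libraries share mice, and pairing within mice could change these p-values. The liver difference exceeded the duodenum difference by 1.73 on the log2 scale for Bmp2 (adjusted p = 0.0249), which was higher under CORT in the liver (1.18) and at -0.54 in the duodenum, where it was not called. For Bdh2 the liver minus duodenum value was -1.62 (adjusted p = 0.0127), from -1.33 in the liver and 0.29 in the duodenum. Bdh2 was at 0.65 to 1.84 TPM in the duodenum, where the log2(TPM + 1) scale understates changes. Its value therefore rests mainly on the liver. For Slc39a8, a zinc and iron importer, it was -0.83 (adjusted p = 0.0386), from -0.12 in the liver and 0.71 in the duodenum, neither of them called. Steap4 also passed the test (1.48, adjusted p = 0.0455), but it was at 0.41 TPM or less in every duodenum library and entered only through the liver, so the value restates its liver difference and does not compare responses. None of the 6 members tested in both tissues passed with all libraries.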

How the results depend on the processing

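TPM without read depth and 3 libraries per group limit what can be seen, and the duodenum Veh libraries differ in acinar and Tff2 transcripts. Counts of called genes moved from 292 in the duodenum to 52 without a filter on low values, 62 with the replicate number as a block, 10 without Veh2 and Veh3, 1395 at unadjusted p, and 66 to 237 with a library left out. In the liver 810 became 283 without a filter, 307 with the block, 1808 at unadjusted p, and 247 to 831 with a library left out. Within a tissue, deviations of same-numbered CORT and Veh libraries correlated between -0.12 and 0.07. Those of other-numbered libraries correlated between -0.14 and 0.13. This gave no sign of pairing by number but cannot exclude a shared cage or day, and liver was not compared with duodenum. The block changed the call of 1 member, liver Steap3 (adjusted p = 0.0564), leaving 0 members called. Without a filter it was also lost (adjusted p = 0.0592), again leaving 0. With a library left out, 0 to 2 members were called in the duodenum, 0 to 2 in the liver and 0 to 2 in the treatment by tissue test, which Cybrd1 and Hamp enter through 1 tissue only. Among the other named genes the block ended the calls of duodenal Cd163 and Tsc22d3 and liver Hp, Bdh2, Steap4, Mcoln1, Bmp2 and Creb3l3 (adjusted p up to 0.105), and leaving out the filter ended those of duodenal Cd163 and Tsc22d3 and liver Hp, Cd163, Steap4, Mcoln1, Bmp2, Il6ra and Creb3l3 (up to 0.156). Median-ratio scaling changed the liver calls from 575 higher and 235 lower to 543 and 468, and removal of acinar genes changed those of the duodenum from 167 and 125 to 167 and 168. Signs turned for Cybrd1 (0.73), Slc40a1 (0.49), Hamp2 (1.34) and Fth1 (0.13) without duodenum Veh2 and Veh3. With no call, they also turned for Tfrc without CORT1 (0.11) or Veh1 (0.19, with -0.29 to 0.19 over all libraries left out). The same held for liver Tfr2 with median-ratio scaling (-0.050). The tissue difference turned, again with no call, for Heph with a pseudocount of 0.1 (0.38). It also turned for Tfr2 without duodenum Veh2 (-0.015, and up to 0.23 with another library left out). The cause of these moves was not tested. Of the other values for single genes, 507 kept direction and side of the threshold, 66 lost and 8 gained the call.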

Other observations

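Haem genes and erythroid transcripts were followed beside the iron genes. Of 17 genes for haem uptake, synthesis and breakdown, 0 were called in either tissue by limma. At an unadjusted p under 0.05, 1 was higher and 5 were lower in the duodenum, and 3 were higher and 3 lower in the liver. Such a p was found for 19.2% of all genes tested in the duodenum and 25.9% in the liver. Erythroid markers in the duodenum summed to 246, 119 and 120 TPM in Veh and to 366, 707 and 457 TPM in CORT libraries, with no overlap. All 5 erythroid genes tested there were higher at an unadjusted p under 0.05 and 0 were called, against the same 19.2%. In the liver the sums overlapped, from 755 to 1983 TPM in Veh and from 1287 to 1766 TPM in CORT libraries.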
